A study of Rattus norvegicus with 38 samples.

Results

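The 38 genes described here belong to the PPAR-alpha and fatty acid oxidation program of the liver. They were chosen by name as a list of symbols, with earlier results of these data known. Of these, 37 were found among the 31038 genes of the deposited count table, and 36 of those 37 had enough counts to be tested. The thioesterase gene Acot1 had too few counts, and the symbol Acaa1a was not in the table. PPAR-alpha (Ppara) is a nuclear receptor that is activated by fatty acids, pairs with a retinoid X receptor and binds DNA at direct repeats of a short half-site. In rodent liver it raises the genes that activate fatty acids, carry them into mitochondria, shorten them there and in peroxisomes, and hydroxylate their ends in the endoplasmic reticulum. It is most active in fasting, when fatty acids become the main fuel of the liver and the source of ketone bodies.

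RNA was sequenced from 38 livers of Sprague-Dawley rats, an outbred laboratory strain, collected on day 28. Extracts that the labels name EF, PF and RD were given by gavage, EF at 2.5 g/kg, PF at 2.5 g/kg and RD at 200 mg/kg, and LPS, the endotoxin of gram-negative bacteria, was injected into the abdominal cavity. The 8 groups were LPS_EF_RD (n = 5), LPS_EF_PF (n = 4), LPS_EF (n = 5), LPS (n = 5), EF_RD (n = 4), EF_PF (n = 5), EF (n = 5) and control (n = 5). LPS_EF_RD livers received LPS with EF and RD, LPS_EF_PF livers LPS with EF and PF, LPS_EF livers LPS with EF, and LPS livers LPS alone. EF_RD, EF_PF and EF livers received the same extracts with no LPS, and control livers received neither extract nor LPS. No group received PF or RD without EF. The labels state neither the LPS dose nor the interval before collection. The labels name hepatocytes, and no step that separates them from whole liver is described. Livers of 1 group are described as biological replicates, so p-values set differences between groups against the spread between animals' livers. That spread was estimated over all 8 groups together.

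The libraries held 19716622 to 35835012 counted read pairs, with a median of 24740186. Each library is called by its group followed by its replicate. LPS_EF 7 and LPS_EF_RD 6 had low levels of A2m and Lbp for libraries labelled LPS. The acute-phase gene A2m stood at 5.84 CPM in LPS_EF 7 and 6.90 CPM in LPS_EF_RD 6, against 84.2 to 344 CPM in the other 17 libraries labelled LPS. Lbp, the LPS-binding protein of plasma, stood at 252 and 256 CPM in LPS_EF 7 and LPS_EF_RD 6, against 2137 to 3795 CPM in those others. Lcn2, an iron-carrier protein that LPS induces, stood at 42.4 CPM in LPS_EF 7 and 0.265 CPM in LPS_EF_RD 6, against 26.8 to 2271 CPM in the other 17 libraries labelled LPS and 0.0383 to 4.98 CPM in control livers. LPS_EF 7 was thus inside the range of the LPS libraries for Lcn2, and LPS_EF_RD 6 inside that of control livers. Among the libraries without LPS, EF 1 and EF_RD 1 had the highest A2m, 17.2 and 19.0 CPM, and the highest Lcn2, 51.5 and 15.3 CPM. For Lbp, EF_RD 1 had 463 CPM, EF 1 423 CPM and EF 5 334 CPM, against 102 to 160 CPM in control livers. In EF 5, 12 LPS response markers summed to 29916 CPM, the highest sum without LPS. For that sum, EF 1 had 27151 CPM and EF_RD 1 24057 CPM. EF_RD 1 also held markers of other tissues, since its summed level of 24 skeletal muscle markers was 5710 CPM and that of 8 adipocyte markers 243 CPM. The muscle sum was 595 CPM in LPS 3 and 7.15 to 14.8 CPM in the other 36 libraries. Exocrine pancreas markers summed to 2041 CPM in LPS 3, 3516 CPM in control 5 and 130 CPM in EF_RD 1. In the remaining libraries they summed to 5.70 to 22.3 CPM. The 14 hepatocyte markers had at least 10 counts in every library. The total counts of calls in the comparisons of LPS with no LPS and of extract with control are therefore also given without LPS_EF 7 and LPS_EF_RD 6, and without these libraries together with EF 1 and EF_RD 1. EF 5, LPS 3 and control 5 were kept in both cases, and were left out only 1 at a time.

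Levels of different genes were compared per length, in the authors' TPM, a unit that divides each count by the length of the gene before scaling to the library. In the 5 control livers Acsl1, which activates long-chain fatty acids by joining them to coenzyme A, was highest at 831 ± 77.6 TPM (SD, n = 5). Acadm, the medium-chain acyl-CoA dehydrogenase, followed at 541 ± 38.2 TPM, and the long-chain dehydrogenase Acadl at 425 ± 64.7 TPM. Cyp4a3, a fatty acid omega-hydroxylase, stood between them at 445 ± 148 TPM and overlapped both in spread. The mitochondrial core other than Echs1 and the 3 genes of electron transfer stood between 117 TPM for Hadhb and 541 TPM for Acadm. Ppara itself stood at 27.0 ± 10.7 TPM and was the 29th highest of the 37. Low levels were found for Pex11a at 14.1 TPM, Crat at 8.93 TPM, Acot2 at 7.56 TPM, Vnn1 at 7.48 TPM, Acot3 at 6.08 TPM and Fgf21 at 4.37 TPM. Echs1, a mitochondrial enoyl-CoA hydratase, was listed at 8.82 ± 1.51 TPM. Reads that map to several places were left out under the authors' counting, so its level is uncertain, as are those of the similar Cyp4a1, Cyp4a2 and Cyp4a3 and of Acot1, Acot2 and Acot3.

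**Figure D1:**
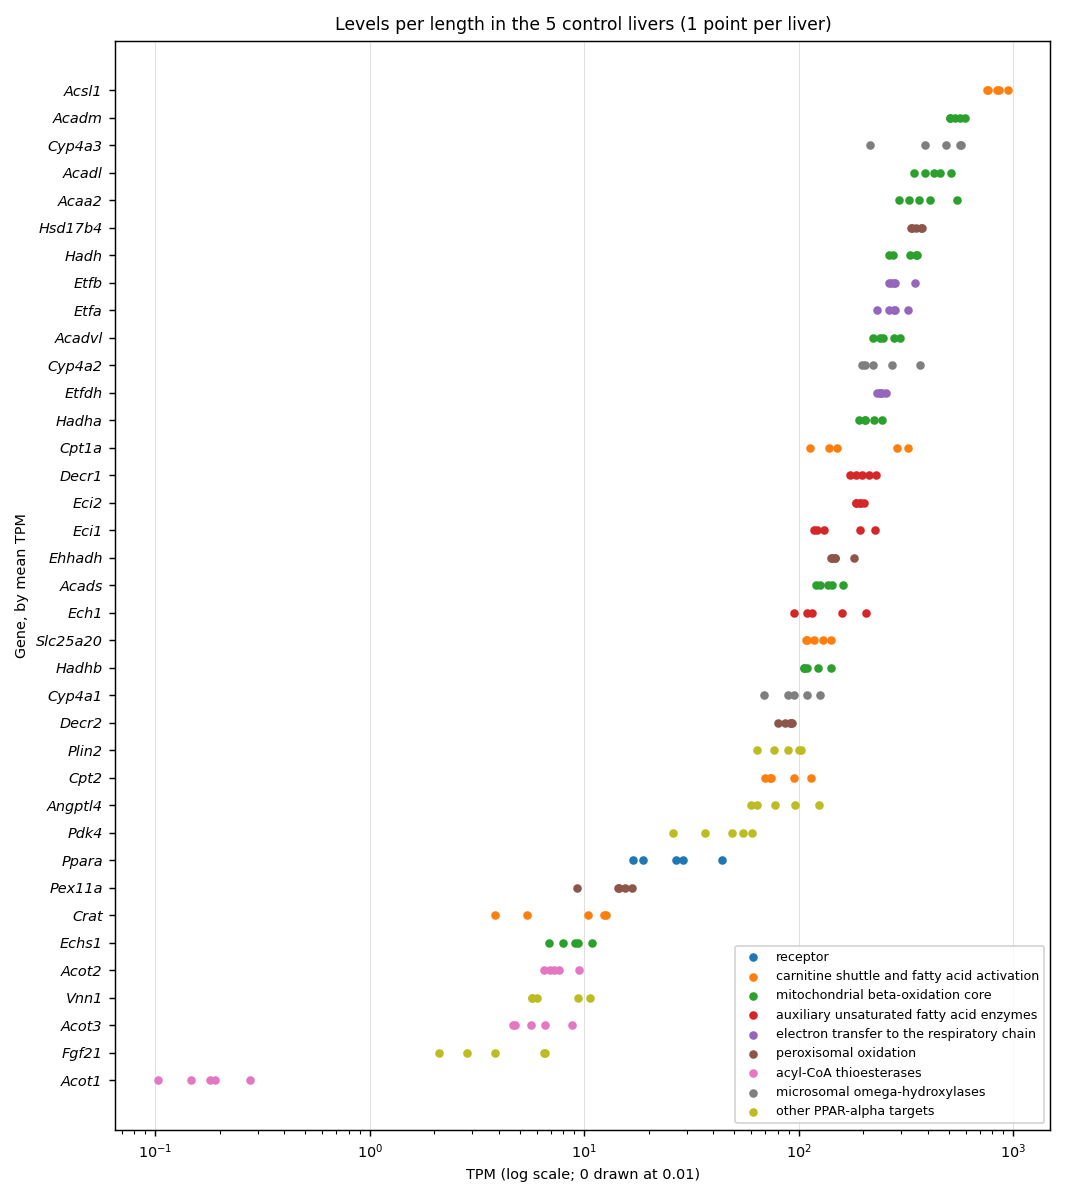
Level of each of the 37 genes in the 5 control livers, in deposited TPM on a log scale, with 1 point per liver and colours by role. Acsl1 is at the top with a mean of 831 TPM, Ppara is 29th with 27.0 TPM, and Acot1 is at the bottom with 0.18 TPM.

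Promoter sequences were examined because PPAR-alpha binds DNA near many of these genes. RefSeq gave 32 promoters of GRCr8 for 31 of the genes, each from 250 bases before to 50 bases after a start. The element sought on both strands was a direct repeat of the half-site AGGTCA with any 1 base between. An exact match was found in 0 of 32 promoters, against 0.0538% of all 33469 rat promoters. With at most 1 mismatch, 1 of 32 (3.12%) held it, against 0.439% of all, and with at most 2 mismatches 5 of 32 (15.6%) did, against 3.77% of all. The half-site alone occurred in 8 of 32 (25.0%), against 16.2% of all. It lies within any exact match of the repeat, but need not lie within a match with mismatches. The 5 promoters with at most 2 mismatches were those of Acadvl, Crat, Echs1, Etfa and Slc25a20. Of these, only those of Acadvl and Echs1 held the exact half-site. A match describes the letters of this window and is not a binding site, and many known elements lie outside such windows. Shown are Acadvl, with the closest match, and Crat, with the largest change in EF_RD against control described further on, with the match in capitals. Cyp4a2 and Cyp4a3, similar genes that were both called in 1 LPS comparison, are shown beside them. Their capitals mark the closest match, AGTTCAGAGATAA, with 3 mismatches, 220 bases before the start in both.
Acadvl, GRCr8 chr10:55236656-55236955, minus strand: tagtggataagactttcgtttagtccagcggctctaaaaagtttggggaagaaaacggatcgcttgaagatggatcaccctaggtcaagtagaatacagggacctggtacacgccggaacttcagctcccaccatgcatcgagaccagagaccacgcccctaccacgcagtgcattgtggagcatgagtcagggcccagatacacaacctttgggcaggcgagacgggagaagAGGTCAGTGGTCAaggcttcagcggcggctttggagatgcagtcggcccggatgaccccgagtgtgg
Crat, GRCr8 chr3:34087050-34087349, minus strand: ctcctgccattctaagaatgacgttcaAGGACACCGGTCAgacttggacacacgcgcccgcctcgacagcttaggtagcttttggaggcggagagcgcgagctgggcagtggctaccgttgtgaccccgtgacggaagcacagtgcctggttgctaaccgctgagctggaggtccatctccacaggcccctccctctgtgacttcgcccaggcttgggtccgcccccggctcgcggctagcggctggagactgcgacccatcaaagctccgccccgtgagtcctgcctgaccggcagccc
Cyp4a2, GRCr8 chr5:134170859-134171158, minus strand: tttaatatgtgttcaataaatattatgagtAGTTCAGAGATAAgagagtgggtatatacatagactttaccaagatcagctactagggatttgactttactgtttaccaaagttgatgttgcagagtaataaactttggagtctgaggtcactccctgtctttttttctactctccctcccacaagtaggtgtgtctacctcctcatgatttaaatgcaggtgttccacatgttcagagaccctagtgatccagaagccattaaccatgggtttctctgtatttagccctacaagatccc
Cyp4a3, GRCr8 chr5:134352187-134352486, minus strand: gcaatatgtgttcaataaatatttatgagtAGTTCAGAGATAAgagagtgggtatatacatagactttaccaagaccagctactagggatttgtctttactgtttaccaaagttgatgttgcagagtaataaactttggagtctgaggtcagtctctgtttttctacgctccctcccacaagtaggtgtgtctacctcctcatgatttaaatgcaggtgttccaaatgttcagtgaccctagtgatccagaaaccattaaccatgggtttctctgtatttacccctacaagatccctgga
The match of Acadvl, AGGTCAGTGGTCA, starts 17 bases before its start, and that of Crat, AGGACACCGGTCA, 223 bases before. Acadvl was lower in 3 of the 4 LPS comparisons, and Crat in 1. Position by position, the Cyp4a2 and Cyp4a3 windows have 180 of 300 bases in common with no gaps allowed.

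Ppara did not pass the test in any of the 10 comparisons of groups. It counted 134, 116, 107, 134 and 55.9 CPM in LPS_EF_RD livers, against 59.9, 93.2, 119 and 92.5 CPM in EF_RD livers. CPM here is the normalised read count, set to library sizes that were scaled with TMM (trimmed mean of M values). With EF and PF it counted 121, 99.6, 116 and 96.2 CPM in LPS_EF_PF livers, against 135, 186, 195, 84.1 and 123 CPM in EF_PF livers. The levels overlapped between LPS and no LPS in each of the 4 extract settings. With EF, Ppara counted 129, 156, 127, 93.6 and 136 CPM in LPS_EF livers, against 112, 215, 88.4, 119 and 74.9 CPM in EF livers. Without extract it counted 149, 189.5, 128, 123 and 132 CPM in LPS livers, against 161, 164, 94.8, 245 and 114 CPM in control livers. EF 2 and control 6 held the highest Ppara levels of all 38 libraries, and LPS_EF_RD 8 the lowest. The log2 fold change was -0.11 ± 0.26 (SE) for LPS against control, with an adjusted p of 0.763 in edgeR's quasi-likelihood test with Benjamini-Hochberg adjustment. All adjusted p-values of genes below come from that test. EF_RD against control gave -0.78 ± 0.28 on the log2 scale at an unadjusted p of 0.00927 and an adjusted p of 0.153.

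Most of the oxidation genes were lower after LPS alone. Of the 36 tested, 25 were lower in LPS than in control livers and 0 were higher, with a median log2 fold change of -0.61, while the median over all 14786 genes tested was -0.0018. Over all those genes 36.8% were called in this comparison, 18.1% as lower and 18.6% as higher. For 20 of the 36 genes every LPS liver lay below every control liver, against 12.4% of all genes. By role, the lower ones were all 9 genes of the mitochondrial core, all 4 auxiliary enzymes of unsaturated fatty acids, all 3 genes of electron transfer and all 4 peroxisomal genes found. They also included 4 of 5 genes of fatty acid activation and the carnitine shuttle, and 1 of the 5 other targets of the receptor. Among the 2 tested thioesterases and the 3 omega-hydroxylases 0 were called, and of these Cyp4a1 had an unadjusted p of 0.0421. LPS_EF 7 and LPS_EF_RD 6 lie outside these groups but share the estimate of the spread. Without them 26 were lower, where 19.6% of all genes were lower. Without EF 1 and EF_RD 1 as well 26 of 37 were lower, where 19.7% of all genes were lower. In bulk liver, fewer cells of a type and less RNA per cell cannot be told apart.

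Acsl1 had the largest log2 fold change among the genes lower after LPS. It counted 1168, 933, 1103, 1144 and 1085 CPM in LPS livers, against 2420, 2088, 2023, 2544 and 2523 CPM in control livers, a log2 fold change of -1.09 ± 0.15 with an adjusted p of 4.79e-06. Every LPS liver lay well under every control liver. Eci1, an isomerase that moves double bonds so that unsaturated chains can be shortened, came next. It counted 35.0, 27.5, 55.6, 38.6 and 46.9 CPM in LPS livers, against 67.4, 100.3, 60.8, 116 and 73.7 CPM in control livers, which did not overlap, at -1.04 ± 0.29 and an adjusted p of 0.00493. Among the acyl-CoA dehydrogenases, which take the initial oxidation step for chains of different length, the log2 fold change was -0.91 ± 0.13 for Acadm, -0.64 ± 0.13 for Acads, -0.57 ± 0.13 for Acadl and -0.43 ± 0.10 for Acadvl. Acadm averaged 309.6 ± 52.0 CPM in LPS livers and 582 ± 51.2 CPM in control livers (SD, n = 5 each).

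Hadha and Hadhb encode the alpha and beta subunits of the mitochondrial trifunctional protein, and their starts lie 301 bases apart on opposite strands in GRCr8. They had similar and small changes, -0.39 ± 0.09 for Hadha and -0.36 ± 0.10 for Hadhb, with adjusted p-values of 0.00149 and 0.00335. Hadh, which oxidises short hydroxyacyl-CoA, fell by 0.68 on the log2 scale, Echs1 by 0.60, and Acaa2, the thiolase that cuts off acetyl-CoA, by 0.45. Etfdh, which passes electrons from these dehydrogenases to ubiquinone, fell by 0.81, with 148, 167, 224, 182 and 207 CPM in LPS livers, against 356, 307, 319, 310.2 and 339 CPM in control livers. Its partners Etfa and Etfb, subunits of the electron transfer flavoprotein, had -0.56 ± 0.11 and -0.56 ± 0.13. Of the auxiliary enzymes, the isomerase Eci2 had -0.67 ± 0.12, the dienoyl-CoA reductase Decr1 -0.63 ± 0.14 and the dienoyl-CoA isomerase Ech1 -0.82 ± 0.26. The calls of Acaa2 and Ech1 depended on single libraries. Acaa2 lost its call without control 6, LPS 1 or LPS 2 (highest adjusted p 0.111), and Ech1 without control 6 (adjusted p 0.0546).

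Cpt1a, the outer-membrane carnitine palmitoyltransferase that sets the entry of long chains into mitochondria, counted 443, 228, 232, 293 and 314 CPM in LPS livers, against 302, 726, 345, 800.4 and 412 CPM in control livers. The groups overlapped, and its log2 fold change of -0.78 ± 0.26 had an adjusted p of 0.0189. That call was lost without control 4, control 6, LPS 2 or LPS 3, with an adjusted p of at most 0.0889. Cpt2, its inner-membrane partner, had -0.85 ± 0.17, and Slc25a20, which exchanges acylcarnitine for carnitine across the inner membrane, had -0.52 ± 0.14. Both Cpt2 and Slc25a20 were lower in every LPS liver than in any control liver. Crat, which moves acetyl groups to carnitine, had 0.39 ± 0.38 with an adjusted p of 0.447.

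In peroxisomes, Ehhadh and Hsd17b4 are the bifunctional enzymes that carry the middle steps of the spiral. Ehhadh averaged 167 ± 24.4 CPM in LPS livers and 259 ± 37.2 CPM in control livers (SD, n = 5 each), a log2 fold change of -0.63 ± 0.16. Hsd17b4 had the smallest standard error of the 36 genes, with -0.37 ± 0.07 and an adjusted p of 0.000138. The peroxisomal dienoyl-CoA reductase Decr2 had -0.66 ± 0.15, and Pex11a, which acts in peroxisome division, -0.79 ± 0.28. The call of Pex11a was lost without LPS 2 or LPS 4 (highest adjusted p 0.0768). Vnn1, a pantetheinase, was the only one of the 5 other targets that passed, at -0.81 ± 0.28, and lost its call without control 4, control 6, LPS 1 or LPS 4 (highest adjusted p 0.0799). Vnn1 counted 3.68, 6.47, 7.03, 3.47 and 6.80 CPM in LPS livers, against 7.64, 13.5, 7.53, 11.7 and 7.82 CPM in control livers.

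Some targets with wide spread did not pass. Angptl4, a secreted inhibitor of lipoprotein lipase, counted 22.7, 18.3, 95.9, 9.58 and 43.2 CPM in LPS livers, against 67.0, 59.4, 94.6, 122 and 82.9 CPM in control livers. Its log2 fold change of -1.17 ± 0.50 had an adjusted p of 0.0631, and LPS 3 lay within the control range. That library held skeletal muscle and exocrine pancreas markers, whose part in its values was not tested. Plin2, which coats lipid droplets, had -0.98 ± 0.43 and an adjusted p of 0.0684, again with LPS 3 as the high value at 129.8 CPM. The symbol Acaa1, which RefSeq lists as a synonym of the peroxisomal thiolase gene Acaa1a, had a log2 fold change of -0.79 ± 0.16 with an adjusted p of 0.00033 and is not counted among the 36.

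Markers of other cells moved with LPS. All 12 tested of 14 neutrophil and monocyte markers were higher in LPS than in control livers, with summed levels of 245 to 486 CPM in LPS livers and 30.3 to 110 CPM in control livers. Markers of Kupffer cells and macrophages were higher for 7 of 13, with sums of 732 to 1095 CPM in LPS livers and 367 to 750 CPM in control livers. Endothelial markers were higher for 7 of 12, with sums of 474 to 607 CPM in LPS livers and 193 to 444 CPM in control livers. Of 14 hepatocyte markers, 9 were lower and 1 was higher, with a median log2 fold change of -0.44 and sums of 158170 to 185490 CPM in LPS livers and 193930 to 233380 CPM in control livers. The part of these shifts in the lower counts of the oxidation genes was not tested.

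**Figure D2:**
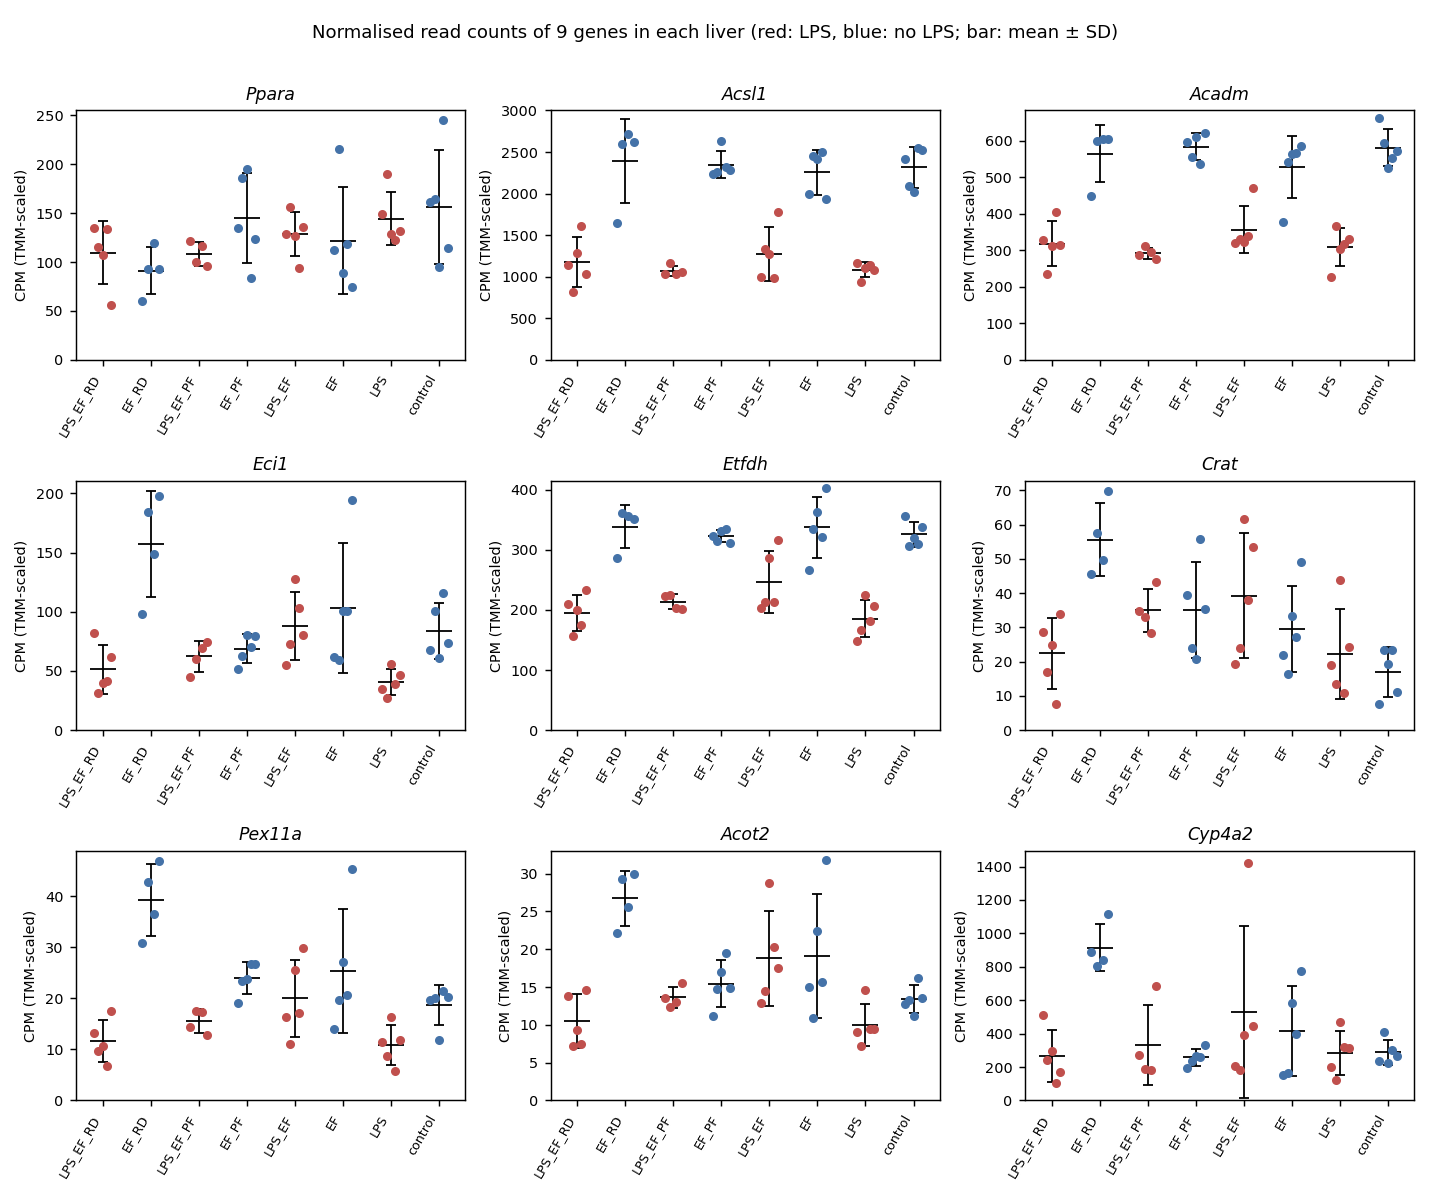
Normalised read counts (CPM, TMM-scaled) of 9 genes in each liver by group, with LPS groups in red, groups without LPS in blue, and bars for the mean ± SD. Acsl1, Acadm and Etfdh separate LPS from control livers, while Crat, Pex11a, Acot2 and Cyp4a2 have their highest group mean in EF_RD livers.

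The same 36 genes were compared within each extract treatment. LPS_EF against EF gave 12 lower and 0 higher genes with a median of -0.32, where 29.1% of all genes were called, 14.5% lower and 14.6% higher. LPS_EF_PF against EF_PF gave 18 lower and 0 higher genes with a median of -0.44, where 36.5% of all genes were called, 17.3% lower and 19.2% higher. LPS_EF_RD against EF_RD gave 31 lower and 0 higher genes with a median of -0.89, where 23.5% of all genes were called, 10.7% lower and 12.8% higher. LPS lay entirely below no LPS for 3 genes with EF, 17 with EF and PF, and 25 with EF and RD, where 4.99%, 17.6% and 6.24% of all genes did so. Without LPS_EF 7 and LPS_EF_RD 6 the counts were 12, 18 and 31, where 17.8%, 18.9% and 14.7% of all genes were lower. Without EF 1 and EF_RD 1 as well they were 20, 18 and 33 of 37, where 18.9%, 18.5% and 14% of all genes were lower. Leaving out LPS_EF 7 and LPS_EF_RD 6 kept the totals but changed some of the genes called. Acaa2 lost its call with EF, and Fgf21 and Plin2 lost theirs with EF and RD, while as many other genes gained one. The count of LPS_EF against EF was thus moved by a few livers, and it ranged from 5 without EF 5 to 18 without EF 1.

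Markers of other cells moved within the extract treatments too. Hepatocyte markers were lower for 10 of 14 and higher for 1 in LPS_EF_PF against EF_PF, with a median log2 fold change of -0.46, beside -0.44 for the oxidation genes. They summed to 162130 to 175920 CPM in LPS_EF_PF livers and 189110 to 222480 CPM in EF_PF livers, which did not overlap. In LPS_EF against EF 4 of 14 were lower and 1 higher with a median of -0.13, and in LPS_EF_RD against EF_RD 2 were lower and 1 higher with a median of -0.15. Neutrophil and monocyte markers were higher for 12 of 12 tested in LPS_EF_PF against EF_PF, with sums of 269.9 to 428 CPM in LPS_EF_PF livers and 23.6 to 49.4 CPM in EF_PF livers. In LPS_EF against EF they were higher for 11 of 12, with sums of 90.5 to 373 CPM in LPS_EF livers and 24.0 to 171 CPM in EF livers. Kupffer cell and macrophage markers were higher for 7 of 13 with EF, 9 with EF and PF and 7 with EF and RD, and endothelial markers for 10, 8 and 5 of 12. The part of these shifts in the counts of the oxidation genes was not tested.

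By role, LPS_EF_RD against EF_RD gave lower calls for all 5 carnitine shuttle and activation genes, 7 of 9 core genes, all 3 omega-hydroxylases, both thioesterases and 4 of the 5 other targets. In LPS_EF_PF against EF_PF, 3 of 5 carnitine shuttle and activation genes and 7 of 9 core genes were lower, and in LPS_EF against EF, 1 of 5 and 4 of 9. The calls of Cpt2 and Slc25a20 in LPS_EF_PF against EF_PF were each lost in 6 of 9 omissions of single libraries, with highest adjusted p-values of 0.0956 and 0.111, both without LPS_EF_PF 1. Those of Hadh and Decr1 were lost in 2 of 9 each (highest adjusted p 0.0656 and 0.114). None of the omega-hydroxylases, thioesterases or other targets was called in LPS_EF_PF against EF_PF or LPS_EF against EF, and the LPS changes with different extracts were not tested against each other. Electron transfer genes were lower for 2 of 3 with EF and RD and for all 3 with EF and PF and with EF, and peroxisomal genes for 4, 3 and 3 of 4.

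A set of 9 genes was lower in all 4 LPS comparisons, namely Acsl1, Acadm, Acadl, Eci2, Etfb, Etfdh, Ehhadh, Hsd17b4 and Decr2, whereas 4.58% of all genes were lower in all 4. Acsl1 counted 1031, 1163, 1037 and 1062 CPM in LPS_EF_PF livers, against 2240, 2260, 2637, 2318 and 2284 CPM in EF_PF livers, at -1.13 ± 0.16. With EF and RD, Acsl1 counted 1146, 813, 1284, 1611 and 1029 CPM in LPS_EF_RD livers, against 1644, 2600, 2715 and 2616 CPM in EF_RD livers, at -1.02 ± 0.16. LPS_EF_RD 6 was the highest of the LPS_EF_RD livers and EF_RD 1 the lowest of the EF_RD livers, and the groups still did not overlap. With EF, Acsl1 counted 992, 1329, 1274, 986 and 1784 CPM in LPS_EF livers, against 1990, 2447, 2419, 2497 and 1935 CPM in EF livers, at -0.83 ± 0.15, and LPS_EF 7 held the highest LPS_EF value. Acadm counted 286, 313, 294 and 275 CPM in LPS_EF_PF livers, against 598, 555, 609.8, 536 and 623 CPM in EF_PF livers, with no overlap, a log2 fold change of -1 ± 0.14 with an adjusted p of 4.79e-06. Of the calls with EF, that of Eci2 was lost in 6 of 10 omissions of single libraries (highest adjusted p 0.251, without EF 5). Those of Acadl, Etfb, Hsd17b4 and Decr2 were also lost without EF 5, at adjusted p-values of 0.113, 0.0915, 0.0809 and 0.0855. Ehhadh and Acadl lost theirs without LPS_EF 6, and Hsd17b4 without LPS_EF 4. With EF and RD, Acadl lost its call without LPS_EF_RD 2, at an adjusted p of 0.0591, and Etfb without EF_RD 2, EF_RD 3, LPS_EF_RD 2 or LPS_EF_RD 4, at no more than 0.0784.

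**Figure D3:**
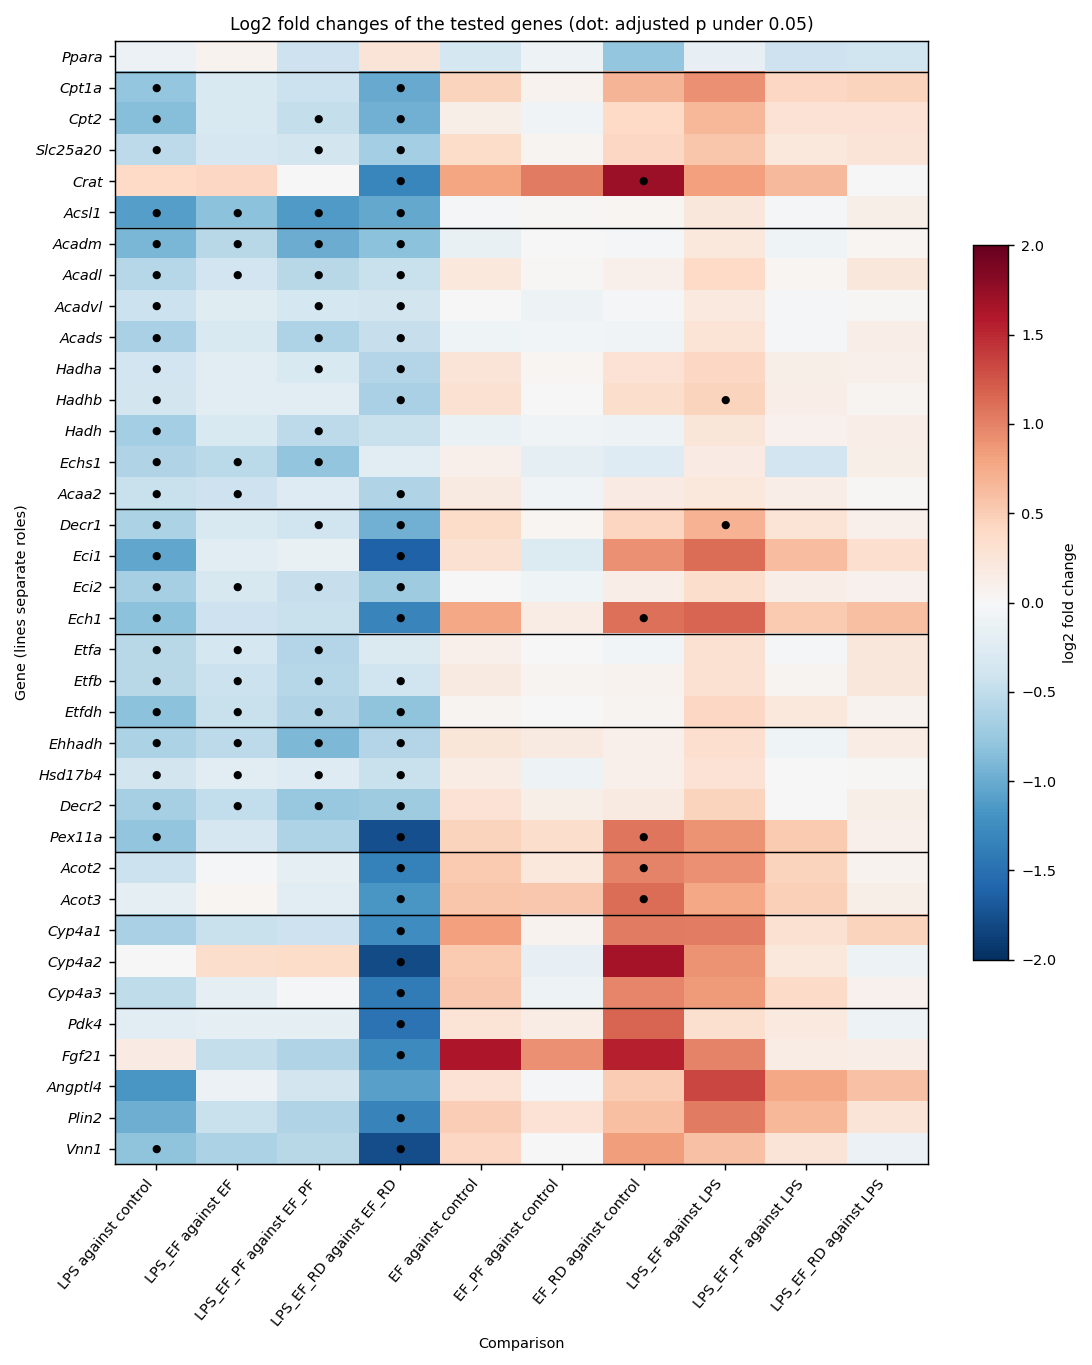
Log2 fold changes of the 36 tested genes (rows, in order of role) in the 10 comparisons of groups (columns), from blue for lower to red for higher, with a dot where the adjusted p was under 0.05. Blue prevails in the 4 LPS columns, with 25, 12, 18 and 31 dots, while Cyp4a2, Pex11a and Vnn1 are darkest in LPS_EF_RD against EF_RD.

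The omega-hydroxylases, the thioesterases and several direct targets passed the test for LPS only with EF and RD. These were 9 genes, Crat, Acot2, Acot3, Cyp4a1, Cyp4a2, Cyp4a3, Pdk4, Fgf21 and Plin2, called as lower in LPS_EF_RD against EF_RD and in none of the other 3 LPS comparisons. Over all genes 10.7% were lower in LPS_EF_RD against EF_RD, and the share lower in it alone was not counted. The interaction that compares this change with that of LPS against control was not significant for any of the 36 genes, where 0.128% of all genes were called, so the changes are not shown to differ. For 9 of the 36 genes it had an unadjusted p under 0.05, and the lowest adjusted p was 0.398, for Crat. The share of all genes at that unadjusted level was not counted, here or in the comparisons below.

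Cyp4a2, an omega-hydroxylase of the endoplasmic reticulum, had the most negative estimate. It counted 512, 240.4, 296, 107 and 169 CPM in LPS_EF_RD livers, against 891, 805, 841 and 1117 CPM in EF_RD livers, at -1.79 ± 0.51 with an adjusted p of 0.0113. Without extract, Cyp4a2 counted 203, 122, 469.8, 319 and 312 CPM in LPS livers, against 233, 412, 226, 299 and 268 CPM in control livers, which overlapped. The EF_RD livers thus lay above all livers of the other 3 groups, and the LPS_EF_RD livers spanned the range of the LPS and control livers. The similar Cyp4a3 counted 507, 269.7, 309, 221 and 467 CPM in LPS_EF_RD livers, against 753, 997, 928 and 1079 CPM in EF_RD livers, at -1.40 ± 0.32. Cyp4a3 without extract counted 334, 192, 432, 287 and 429.9 CPM in LPS livers, against 240.1, 599, 402, 589 and 556 CPM in control livers. Cyp4a1 counted 147, 62.6, 102, 89.9 and 122 CPM in LPS_EF_RD livers, against 175, 276, 239 and 300.5 CPM in EF_RD livers, which did not overlap, at -1.24 ± 0.32. LPS_EF_RD 6, with low A2m and Lbp, held the lowest value of its group for Cyp4a2, Cyp4a3, Crat, Acot3, Fgf21, Plin2 and Pex11a. For Cyp4a1, Acot2 and Pdk4 the lowest value was that of LPS_EF_RD 2. These low values thus did not follow the levels of A2m and Lbp within the group.

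Pex11a counted 13.3, 9.64, 10.6, 6.68 and 17.5 CPM in LPS_EF_RD livers, against 30.9, 42.7, 36.6 and 46.8 CPM in EF_RD livers, at -1.76 ± 0.29 with an adjusted p of 0.000103. Vnn1 counted 6.17, 5.18, 4.39, 4.56 and 4.91 CPM in LPS_EF_RD livers, against 16.2, 16.8, 13.0 and 23.1 CPM in EF_RD livers, at -1.77 ± 0.29. Neither gene overlapped between the groups, and each was also lower after LPS alone. Eci1 counted 82.3, 31.4, 40.0, 41.9 and 62.2 CPM in LPS_EF_RD livers, against 97.9, 184, 149 and 198 CPM in EF_RD livers, at -1.61 ± 0.30. Ech1 counted 82.7, 66.1, 39.3, 94.7 and 70.9 CPM in LPS_EF_RD livers, against 165, 178, 161 and 200.4 CPM in EF_RD livers, at -1.32 ± 0.27. Both auxiliary enzymes were separated between the groups. Cpt1a counted 672, 330.3, 236, 413 and 410.0 CPM in LPS_EF_RD livers, against 779.6, 1007, 566 and 972 CPM in EF_RD livers, at -1.01 ± 0.27, with LPS_EF_RD 1 inside the EF_RD range.

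Crat counted 28.5, 17.0, 24.8, 7.74 and 33.9 CPM in LPS_EF_RD livers, against 45.5, 57.6, 49.7 and 69.8 CPM in EF_RD livers, at -1.31 ± 0.40 with an adjusted p of 0.0169. That call was lost without EF_RD 4, at an adjusted p of 0.0525. Acot2, a mitochondrial thioesterase that releases fatty acids from coenzyme A, counted 13.9, 7.205, 9.31, 7.43 and 14.7 CPM in LPS_EF_RD livers, against 22.1, 29.2, 25.6 and 29.9 CPM in EF_RD livers, at -1.35 ± 0.25. Acot3, its peroxisomal relative in rodents, counted 8.11, 4.84, 5.00, 4.35 and 9.18 CPM in LPS_EF_RD livers, against 8.78, 16.2, 13.6 and 18.05 CPM in EF_RD livers, at -1.17 ± 0.29. The groups were apart for Crat and Acot2 and overlapped for Acot3, where EF_RD 1 was the low value. Acot1, the cytosolic member, had 12 counts in all 5 LPS_EF_RD libraries together and 33 in the 4 EF_RD libraries, at most 13 in any library, and was not tested.

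Pdk4, a kinase that blocks pyruvate dehydrogenase and so spares glucose, counted 22.0, 15.8, 42.7, 17.0 and 44.9 CPM in LPS_EF_RD livers, against 78.0, 98.6, 42.8 and 97.3 CPM in EF_RD livers, at -1.47 ± 0.40 with an adjusted p of 0.00722. EF_RD 3 was low and lay within the LPS_EF_RD range. Plin2 counted 94.4, 52.7, 63.8, 20.2 and 123 CPM in LPS_EF_RD livers, against 139.7, 203, 188 and 182 CPM in EF_RD livers, at -1.33 ± 0.45. Its call was lost without EF_RD 2, EF_RD 3, EF_RD 4, LPS_EF_RD 2, LPS_EF_RD 4 or LPS_EF_RD 6, with an adjusted p of at most 0.0724. Fgf21, a fasting hormone made by the liver, counted 1.80, 2.37, 3.25, 0.796 and 1.01 CPM in LPS_EF_RD livers, against 3.72, 6.996, 1.80 and 5.45 CPM in EF_RD livers, at -1.27 ± 0.45. The call of Fgf21 was lost without EF_RD 2, EF_RD 4, LPS_EF_RD 1, LPS_EF_RD 6 or LPS_EF_RD 8, with an adjusted p of at most 0.151. Plin2 and Fgf21 also lost their calls without LPS_EF 7 and LPS_EF_RD 6 together. Fgf21 was not called without EF 1 and EF_RD 1 as well.

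EF_RD 1, the library with skeletal muscle, adipocyte and some exocrine pancreas transcripts, was the lowest of the EF_RD livers for 7 genes by a wide gap. Without EF_RD 1, 33 genes of the set were lower in LPS_EF_RD than in EF_RD livers. The share of all genes lower in that fit is not given. The rise over the count with all libraries is therefore not shown to be particular to these genes. Of 24 muscle markers 12 were tested, and LPS_EF_RD livers were lower than EF_RD livers for all 12, with sums of 12.0 to 14.8 CPM in LPS_EF_RD livers and 9.06 to 5710 CPM in EF_RD livers. Neutrophil and monocyte markers summed to 119 to 495 CPM in LPS_EF_RD livers and 40.9 to 91.9 CPM in EF_RD livers, with 12 of 12 tested higher, and their part in these differences was not tested.

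**Figure D4:**
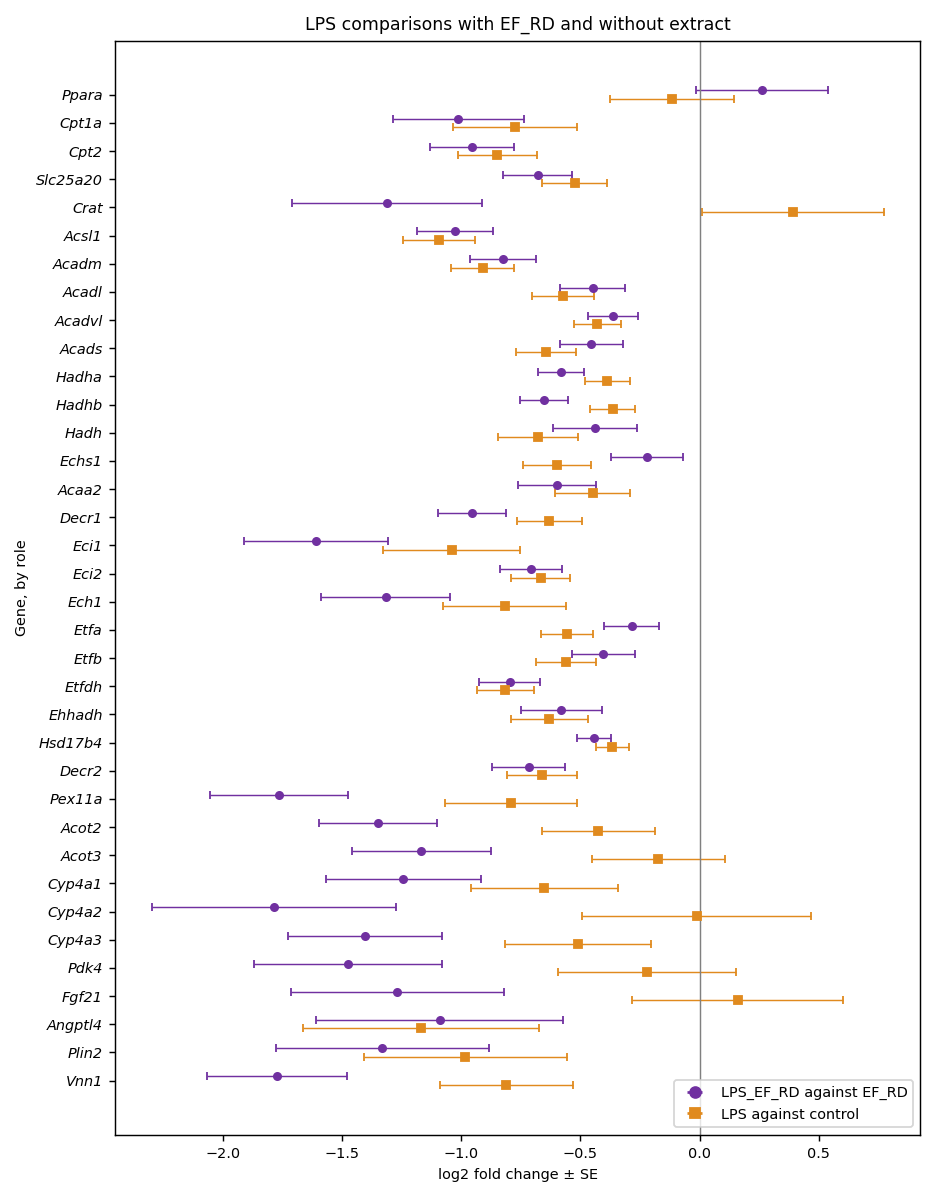
Log2 fold changes with standard errors for the 36 tested genes in LPS_EF_RD against EF_RD (purple circles) and LPS against control (orange squares), in order of role. Points lie close together for the mitochondrial core, where Acadm has -0.82 and -0.91, and further apart for Crat, with -1.31 and 0.39, and Cyp4a2, with -1.79 and -0.01.

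Without LPS, the extracts were compared with control livers. EF_RD against control gave 5 higher and 0 lower genes of the 36, with a median of 0.37, where 1.52% of all genes were called, 0.859% higher and 0.663% lower. These were Crat, Ech1, Pex11a, Acot2 and Acot3. The count was also 5 without LPS_EF 7 and LPS_EF_RD 6, where 1.28% of all genes were higher. It was 4 of 37 without EF 1 and EF_RD 1 as well, where 0.423% of all genes were higher. For 10 of the 36 genes every EF_RD liver lay above every control liver, against 2.48% of all genes. The EF_RD libraries are the same as in LPS_EF_RD against EF_RD, so the low and high values of the pair of comparisons are not independent. EF against control gave 0 calls with a median of 0.28, where 0.92% of all genes were called, and 10 of the 36 genes had an unadjusted p under 0.05. EF_PF against control gave 0 calls with a median of 0.02, where 0.622% of all genes were called, and 2 genes had an unadjusted p under 0.05. Both counts were also 0 under either omission of libraries. DESeq2 called 1 gene in EF against control and none in EF_PF against control. The mitochondrial core had medians of -0.04 for EF_RD, -0.06 for EF_PF and 0.10 for EF against control, whereas the omega-hydroxylases had 1.04, -0.10 and 0.54.

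Crat had the largest change, with 45.5, 57.6, 49.7 and 69.8 CPM in EF_RD livers, against 7.68, 23.3, 19.4, 23.5 and 11.1 CPM in control livers, at 1.71 ± 0.40 and an adjusted p of 0.0231. Ech1 counted 165, 178, 161 and 200.4 CPM in EF_RD livers, against 59.7, 94.1, 66.9, 120.1 and 69.8 CPM in control livers, at 1.10 ± 0.27. Pex11a counted 30.9, 42.7, 36.6 and 46.8 CPM in EF_RD livers, against 19.7, 20.1, 11.8, 21.4 and 20.2 CPM in control livers, at 1.07 ± 0.29. All EF_RD livers lay above all control livers for these genes. Acot2 counted 22.1, 29.2, 25.6 and 29.9 CPM in EF_RD livers, against 12.7, 13.3, 11.1, 16.2 and 13.6 CPM in control livers, at 0.998 ± 0.25. Acot3 counted 8.78, 16.2, 13.6 and 18.05 CPM in EF_RD livers, against 5.36, 6.94, 5.91, 9.15 and 5.30 CPM in control livers, at 1.11 ± 0.29. Acot2 was separated between the groups, and Acot3 overlapped through EF_RD 1 and control 6.

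None of these 5 calls held in every omission of 1 library. The count was 0 without control 3, control 7 or EF_RD 4, 1 without control 5 or EF_RD 1, 2 without control 4 or EF_RD 2, and at most 5. Crat lost its call without control 3, control 7, EF_RD 1 or EF_RD 4 (highest adjusted p 0.0875), and Ech1 without control 3, control 5, control 7, EF_RD 1 or EF_RD 4 (highest adjusted p 0.094). Pex11a lost it in 9 of 9 omissions (highest adjusted p 0.109), Acot2 in 7 of 9 (0.0854) and Acot3 in 7 of 9 (0.117). Without LPS_EF 7, LPS_EF_RD 6, EF 1 and EF_RD 1 together, 4 of 37 tested genes were higher, Crat at 1.80 ± 0.41, Acot3 at 1.29 ± 0.30, Pex11a at 1.18 ± 0.27 and Acot2 at 1.08 ± 0.26. Skeletal muscle markers were higher for 10 of 12 tested in EF_RD against control, with sums of 9.06 to 5710 CPM in EF_RD livers and 8.74 to 12.1 CPM in control livers. The part of these transcripts in the calls was not tested.

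Genes of this set with the same direction but no call were Cyp4a2 at 1.67 ± 0.51 (adjusted p 0.0862), Fgf21 at 1.56 ± 0.45 (0.0684), Cyp4a1 at 1.04 ± 0.32 (0.0946) and Cyp4a3 at 0.98 ± 0.32 (0.113). Fgf21 had the lowest adjusted p of EF against control, with 3.27, 2.30, 6.63, 4.77 and 6.39 CPM in EF livers, against 2.33, 2.22, 0.698, 0.948 and 1.39 CPM in control livers, at 1.62 ± 0.44 and an adjusted p of 0.0613. EF 2 lay within the control range of Fgf21 and the other 4 EF livers above it. Cyp4a1 counted 141, 115, 202, 138 and 467 CPM in EF livers, against 89.0, 133, 106, 150.1 and 125 CPM in control livers, and EF 5 stood far above the rest of its group. EF 5 was also the highest EF liver for Pex11a, Ech1, Eci1, Acot2 and Acot3.

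After LPS, the extracts were compared with LPS alone. LPS_EF against LPS gave 2 higher and 0 lower genes of the 36, with a median of 0.45, where 0.108% of all genes were called, 0.0744% higher and 0.0338% lower. Decr1 counted 131, 111, 146, 127 and 139 CPM in LPS_EF livers, against 70.2, 59.6, 105, 80.5 and 88.7 CPM in LPS livers, at 0.70 ± 0.14 with an adjusted p of 0.0382. Hadhb counted 171, 152, 203, 189 and 179.9 CPM in LPS_EF livers, against 125, 112, 148, 128 and 142 CPM in LPS livers, at 0.45 ± 0.10 with an adjusted p of 0.0452. The groups did not overlap for either gene, and for 11 of the 36 genes every LPS_EF liver lay above every LPS liver, against 1.37% of all genes. The estimate was above 0 for 35 of 36 genes, and 27 had an unadjusted p under 0.05. The median over all genes was -0.010, but the shares of all genes for these 2 counts were not counted. The 36 genes were measured in the same livers, so these counts are not a test of the set. Without LPS_EF 7 and LPS_EF_RD 6 neither gene was called, at 0.68 ± 0.15 with an adjusted p of 0.0901 for Decr1 and 0.45 ± 0.10 with an adjusted p of 0.11 for Hadhb, and the median was 0.43. Decr1 also lost its call without LPS 1, LPS 2, LPS 4, LPS 5, LPS_EF 5 or LPS_EF 7 (highest adjusted p 0.16), and Hadhb without any of these or LPS_EF 6 (highest adjusted p 0.222).

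LPS_EF_PF against LPS and LPS_EF_RD against LPS gave 0 calls each, where 0.0406% and 0.0135% of all genes were called. Their medians were 0.18 and 0.12, each with 2 genes at an unadjusted p under 0.05, and DESeq2 also called none. Cpt1a counted 513, 635, 481, 603 and 623 CPM in LPS_EF livers, against 443, 228, 232, 293 and 314 CPM in LPS livers, which did not overlap, at 0.92 ± 0.26 and an adjusted p of 0.167. In LPS_EF_RD against LPS the same gene had 0.45 ± 0.26, and in LPS_EF_PF against LPS 0.41 ± 0.27. The 3 comparisons share the LPS libraries. The interactions of LPS with EF and with EF_PF gave 0 calls, where 0.108% and 0.0812% of all genes were called, with 2 and 1 of the 36 genes at an unadjusted p under 0.05 and lowest adjusted p-values of 0.649 and 0.988.

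The mitochondrial core and the omega-hydroxylases were also summarised in each library. The core was taken as the median over its 9 genes of the log2 difference from the control mean. It lay between -0.72 and -0.28 in LPS_EF_RD livers, -0.65 and -0.39 in LPS_EF_PF livers, -0.41 and -0.13 in LPS_EF livers, and -0.73 and -0.36 in LPS livers. In livers without LPS it lay between -0.13 and 0.13 with EF_RD, -0.11 and 0.10 with EF_PF, -0.26 and 0.38 with EF, and -0.20 and 0.19 in control. LPS_EF 5 and LPS_EF 7, at -0.23 and -0.13, lay above EF 1 at -0.26, and LPS_EF 7 also lay above control 5 at -0.20 and just above EF_RD 1 at -0.13. LPS_EF_RD 6 had the highest core median of its group, -0.28, and the lowest omega-hydroxylase median, -1.03. The omega-hydroxylase median ran from 0.73 to 1.34 in EF_RD livers, and from -0.41 to 0.40 in control livers. Among LPS_EF livers it ran from -0.63 to 0.95, wider than the core.

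**Figure D5:**
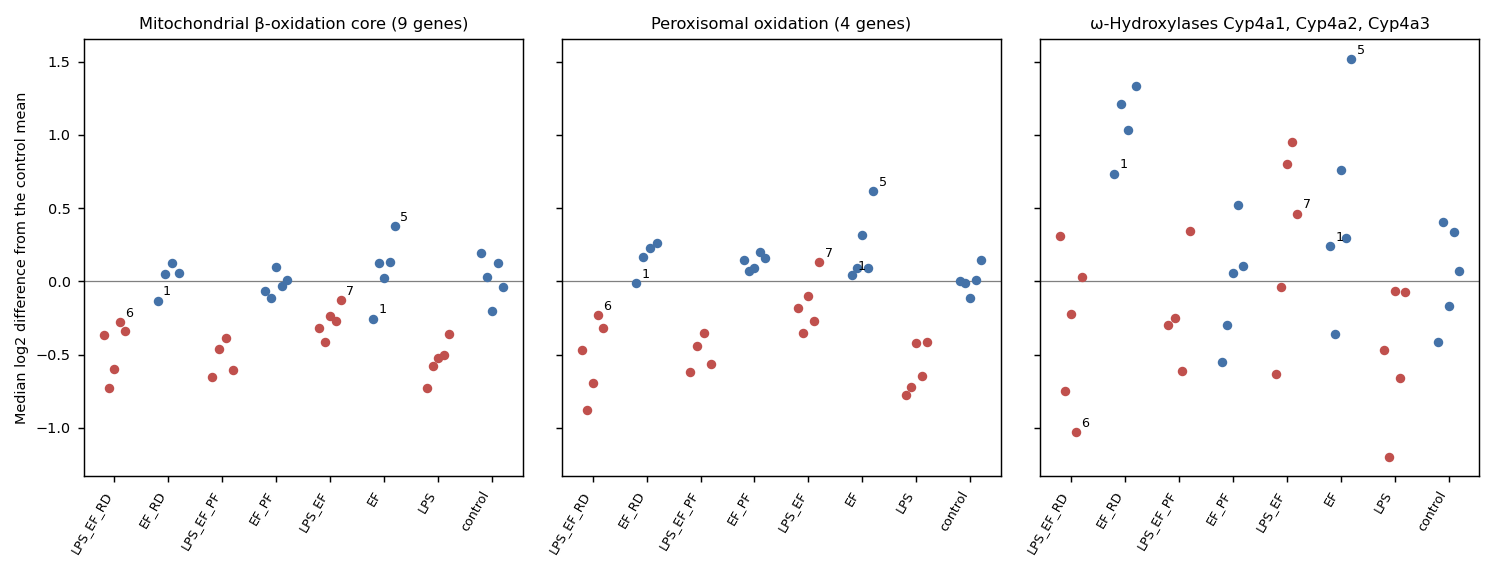
Median log2 difference from the control mean over the 9 genes of the mitochondrial core, the 4 peroxisomal genes and the 3 omega-hydroxylases, with 1 point per liver, LPS groups in red and groups without LPS in blue. LPS_EF 7, LPS_EF_RD 6, EF 1, EF 5 and EF_RD 1 carry their replicate number, and the omega-hydroxylase panel spreads most, from -1.20 in LPS 2 to 1.52 in EF 5.

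Other genes of the pathway were taken from 6 lists with 122 symbols, of which 118 were in the count table and 113 were tested. In LPS against control 51 were lower and 6 were higher, where 18.1% of all genes were lower and 18.6% higher. Peroxisomal genes gave 18 lower of 35, mitochondrial and carnitine genes 7 lower and 1 higher of 13, and uptake and activation genes 6 lower and 1 higher of 16. Thioesterases and omega-oxidation gave 6 lower and 1 higher of 12, lipid droplet genes and other targets 8 lower and 3 higher of 21, and partners of the receptor 6 lower of 16. Without LPS_EF 7 and LPS_EF_RD 6 the totals were 54 lower and 6 higher, and without EF 1 and EF_RD 1 as well 57 and 7. Hacl1, a peroxisomal lyase of alpha-oxidation, averaged 116 ± 35.6 CPM in LPS livers and 559.5 ± 184 CPM in control livers (SD, n = 5 each), at -2.28 ± 0.44. Catalase (Cat), which destroys the peroxide made in peroxisomes, averaged 1507 ± 221 CPM in LPS livers and 3185 ± 461 CPM in control livers (SD, n = 5 each), at -1.08 ± 0.16. Pxmp4, a peroxisomal membrane protein, was lower too, with -1.04 ± 0.20 on the log2 scale. Acsl4, which favours arachidonic acid, had -1.22 ± 0.24, and Lpin1, a coactivator of PPAR-alpha, -1.21 ± 0.36. Por, which supplies electrons to cytochromes P450, had -1.04 ± 0.36 and lost its call without control 4, control 6 or LPS 3 (highest adjusted p 0.0741). Crot, the peroxisomal carnitine octanoyltransferase, had -1.03 ± 0.39 and lost it in 5 of 10 omissions (highest adjusted p 0.0988, without LPS 1). Lpl, lipoprotein lipase, was higher by 1.57 ± 0.62 and lost its call in 7 of 10 omissions (highest adjusted p 0.186, without LPS 3).

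In the other LPS comparisons, 27 of the 113 were lower and 5 higher with EF, 62 lower and 5 higher with EF and PF, and 48 lower and 3 higher with EF and RD. Over all genes 14.5% were lower and 14.6% higher with EF, 17.3% and 19.2% with EF and PF, and 10.7% and 12.8% with EF and RD. Without LPS_EF 7 and LPS_EF_RD 6 the counts were 37 and 5, 63 and 5, and 56 and 4, and without EF 1 and EF_RD 1 as well 40 and 8, 64 and 5, and 56 and 5. With EF, Lpl was higher by 2.02 ± 0.63, Hacl1 had -1.33 ± 0.42, and Me1, the malic enzyme that makes NADPH, had -1.29 ± 0.21. The call of Lpl there was lost without LPS_EF 5 (adjusted p 0.0525), and that of Hacl1 without LPS_EF 3 or LPS_EF 5 (at most 0.0565). With EF and PF, Lpl had 2.53 ± 0.66, Lpin1 -2.31 ± 0.41 and the medium-chain activating enzyme Acsm3 -1.81 ± 0.53. With EF and RD, Hacl1 had -2.04 ± 0.45 and the peroxisomal thioesterase Acot4 -1.65 ± 0.37. Plin4, a lipid droplet protein of adipocytes and muscle, was called at -4.99 ± 1.13 through EF_RD 1, where it stood at 41.2 CPM against 0.17 to 0.69 CPM in all other EF_RD and LPS_EF_RD livers. Without EF_RD 1 its adjusted p was 0.987.

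Without LPS, the 113 genes gave 1 lower and 3 higher in EF_RD against control, 1 and 1 in EF against control, and 0 in EF_PF against control. Over all genes 0.663% were lower and 0.859% higher in EF_RD against control, and 0.92% and 0.622% were called in either direction in EF against control and EF_PF against control. Without LPS_EF 7 and LPS_EF_RD 6 there were 1 lower and 4 higher with EF and RD, 1 and 1 with EF, and 0 and 1 with EF and PF. Without EF 1 and EF_RD 1 as well there were 0 lower and 1 higher with EF and RD, 1 and 1 with EF, and 0 and 2 with EF and PF. Lipe, hormone-sensitive lipase, counted 33.0, 9.89, 12.1 and 12.5 CPM in EF_RD livers, against 3.40, 6.06, 7.12, 7.05 and 3.48 CPM in control livers, which did not overlap. It had 1.63 ± 0.26 with an adjusted p of 0.000632, and 1.08 with an adjusted p of 0.0106 without EF_RD 1. Plin4 was called through EF_RD 1 here too, with an adjusted p of 0.924 without it, and lost its call without control 3, control 4 or control 7 as well. Acnat2, an acyl-CoA amino acid N-acyltransferase, had -0.63 ± 0.14 with EF and RD and -0.54 ± 0.13 with EF. That of EF_RD was lost without EF_RD 1 (adjusted p 0.103), and that of EF in 6 of 10 omissions (highest adjusted p 0.101, without EF 5). Pex19, which imports peroxisomal membrane proteins, had 0.45 ± 0.11 with EF and lost its call in 8 of 10 omissions (highest adjusted p 0.12, without control 5). In LPS_EF against LPS, the peroxisomal oxidase Acox2 was higher, at 0.55 ± 0.12. Its call was lost in 8 of 10 omissions, with an adjusted p of 0.234 without LPS_EF 7, 0.0793 without LPS_EF 7 and LPS_EF_RD 6, and 0.0222 without EF 1 and EF_RD 1 as well.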

How the data were processed

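RNA was sequenced from 38 rat livers in 8 groups, assigned from the sample labels. The deposited raw counts are read pairs per gene name from featureCounts 2.0.6 with an rn6 RefSeq annotation and no strand, per the file headers. The deposited TPM values equal those recomputed from the counts within 0.0495% where they are at least 1 TPM. STAR, RSEM and mRatBN7.2 are named as well in the submitters' processing notes, with no versions or roles. Raw counts of all 31038 genes were filtered with edgeR's filterByExpr (minimum count 10, minimum total 15), which left 14786 genes, scaled with TMM and fitted with 1 mean per group over all libraries in edgeR 4.0.16 (limma 3.58.1, R 4.3.3). The quasi-likelihood test with Benjamini-Hochberg adjustment within each comparison made a call at an adjusted p under 0.05. SE is the log2 fold change divided by the square root of F. TPM served only for levels between genes. DESeq2 1.42.0, RLE scaling, total counts, no filter, a replicate block, only the groups compared and left-out libraries were alternatives.

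The members and all lists were chosen with earlier results of these data known, and the set without EF 1, EF_RD 1, LPS_EF 7 and LPS_EF_RD 6 was chosen after seeing the data. Values per library were given for Ppara, for members with a called LPS change of at least 1 (log2), for members called in an extract comparison and for members not tested. Of the pathway lists, the called genes with the largest changes were named if the group with more counts averaged 5 CPM or above, 8 for LPS against control and 3 for each other comparison. A gene that this rule names is not reported here. On simulated counts for LPS against control with 14786 genes, 29 of 50 genes at a fold of 0.5 and 32 of 50 at a fold of 2 were called in the right direction, 16 of 50 at 0.667, 30 of 50 at 1.5, and 4 of 14586 unchanged genes. No 2 libraries held identical counts.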

Additional observations from a re-analysis of the deposited data

Results flagged for a closer look

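For each gene and group the highest or lowest liver was compared with the rest of its group, and 26 of 288 sets (9.03%) held a liver set apart by Dixon's 95% criterion, which chance meets in about 1 of 20. EF_RD 1, with muscle, adipocyte and some exocrine pancreas transcripts, accounted for 7 of them, each as the lowest EF_RD liver. It stood at 448 CPM for Acadm, 1644 CPM for Acsl1, 93.2 CPM for Cpt2, 141 CPM for Eci2, 228 CPM for Ehhadh, 286 CPM for Etfdh and 317 CPM for Hadha. The part of the foreign transcripts in these low values was not tested.

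LPS_EF 7, with low A2m and Lbp, was the highest LPS_EF liver for Acadm at 470.4 CPM and for Decr2 at 100.4 CPM. LPS_EF 6 stood apart at 1424 CPM for Cyp4a2 and 136 CPM for Ehhadh. EF 5 was the highest EF liver for Cyp4a1 at 467 CPM and for Slc25a20 at 244 CPM, and EF 1 the lowest for Acadm at 378 CPM. Among EF_PF livers, EF_PF 2 stood at 119 CPM for Decr1, EF_PF 3 at 2637 CPM for Acsl1, and EF_PF 6 at 7.15 CPM for Fgf21 and 65.6 CPM for Pdk4. LPS 3 was the highest LPS liver for Plin2 at 129.8 CPM. LPS_EF_PF 4 stood at 267 CPM for Hadha, LPS_EF_RD 2 at 157 CPM for Hadh and LPS_EF_RD 4 at 187 CPM for Acaa2. Among control livers, control 3 stood at 167 CPM for Etfb, control 5 at 457 CPM for Hsd17b4 and 11.8 CPM for Pex11a, and control 7 at 325 CPM for Ehhadh.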

How the results depend on the processing

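Counts of called genes stayed within 1.5 times and kept their direction under the alternatives, apart from these. For LPS_EF against EF (12) the count was 19 with a replicate block, 4 with only the groups compared and 20 without EF 1, EF_RD 1, LPS_EF 7 and LPS_EF_RD 6. For LPS_EF_PF against EF_PF (18) it was 10 with total counts. For EF_RD against control (5) it was 9 with total counts, 14 with the replicate block and 2 with only the groups compared. For LPS_EF against LPS (2) it was 9 in DESeq2, 1 with total counts, and 0 with no filter, the replicate block, only the groups compared, or either set of libraries left out. For EF against control (0) it was 1 in DESeq2. The shares of all genes called are given above only for the 2 sets of libraries left out together. Under the other alternatives the moves are therefore not shown to be particular to these genes. The cause of these moves was not tested.

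Leaving out 1 library at a time gave 21 to 26 for LPS against control, 5 to 18 for LPS_EF against EF, 14 to 19 for LPS_EF_PF against EF_PF, 28 to 33 for LPS_EF_RD against EF_RD, 0 to 2 for EF against control, 0 to 5 for EF_RD against control and 0 to 5 for LPS_EF against LPS, and 0 for the others. The shares of all genes called are not given for these omissions either. Of the values of single genes, 1445 stayed on their side of the threshold, 175 no longer passed it and 0 reversed. Total counts moved the median of all genes to 0.13 for LPS against control and 0.14 for LPS_EF_PF against EF_PF. They moved the higher share of called genes to 72.0% from 50.6% for LPS against control, to 78.5% from 52.6% for LPS_EF_PF against EF_PF, and to 83.6% from 56.4% for EF_RD against control. It became 67.7% in place of 50.2% for LPS_EF against EF, 64.7% in place of 54.4% for LPS_EF_RD against EF_RD and 46.7% in place of 68.8% for LPS_EF against LPS.

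The labels do not say that replicate numbers pair the livers. Same-numbered livers correlated at -0.23 to 0.04 in LPS against control and at 0.17 and 0.21 over 2 pairs in EF_RD against control, so the block is only an alternative. It also gives LPS_EF_RD 8 a term of its own. Acot1, with at most 13 counts in a library, did not pass the filter on low counts and passed it without EF 1, EF_RD 1, LPS_EF 7 and LPS_EF_RD 6.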
